A study of Mus musculus with 9 samples.

Results

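Early B-lymphoid priming was followed through 7 genes in purified mouse blood stem cells: Dntt, Rag1, Rag2, Ebf1, Pax5, Cd79a and Cd79b. Of these 7, 6 could be read among the 22180 genes of the array, each from the probe set that carried its symbol alone and had the highest mean over the 9 arrays. The array's Rag1 probe set also carried the symbol of the neighbouring gene Iftap, so no value is given for Rag1. Another Rag2 probe set carried Iftap as well and was not used. The cells were long-term haematopoietic stem cells (LT-HSC) of C57BL/6 mice, sorted by flow cytometry as Lin- Sca-1+ c-kit+ cells without CD34 and without CD135, the product of Flt3. Each of 3 genotypes had 3 biological replicates. Jak2VF_Ezh2KO mice were MxCre Jak2VF/+ EZH2-/-, with 1 mutant Jak2 allele and loss of the histone methyltransferase Ezh2. Jak2VF mice were MxCre Jak2VF/+, and WT mice served as controls. All mice received 5 doses of 300 µg pI-pC from 4 weeks of age, and marrow was taken 12 weeks after the injections. pI-pC is a double-stranded RNA mimic that switches on the interferon-responsive MxCre transgene, which acts in blood cells and in other interferon-responsive tissues. The sources used here do not say whether the WT mice carried MxCre, and a group with Ezh2 loss alone was not analysed here.

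B lymphocytes arise from stem cells through lymphoid-primed progenitors, which begin to transcribe a few lymphoid genes before they commit. Terminal deoxynucleotidyl transferase, encoded by Dntt, and the recombinase made of Rag1 and Rag2 are among the early ones, and T cell precursors use them too. Ebf1 and then Pax5 are the transcription factors that specify the B lineage and commit cells to it, and Cd79a and Cd79b encode the paired signalling chains of the pre-B and B cell receptor. Ezh2 is the catalytic subunit of Polycomb repressive complex 2, which places a repressive mark on histone H3 and is known to be needed for normal B cell development in mouse marrow.

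The start regions of Dntt and Cd79a are shown because these genes gave the pair of contrasting patterns described next: Dntt lay high in every double mutant array, and Cd79a in a single one. The sequences are from RefSeq (build GRCm38.p6), run 5′ to 3′ on the plus strand of their chromosomes, and cover 250 bases before to 50 bases after the annotated start. Capitals mark E-boxes (CANNTG, the site class bound by E2A, the product of Tcf3) and the core GGGAA of Ikaros sites, searched on both strands.
Dntt, chr19:41029025-41029324: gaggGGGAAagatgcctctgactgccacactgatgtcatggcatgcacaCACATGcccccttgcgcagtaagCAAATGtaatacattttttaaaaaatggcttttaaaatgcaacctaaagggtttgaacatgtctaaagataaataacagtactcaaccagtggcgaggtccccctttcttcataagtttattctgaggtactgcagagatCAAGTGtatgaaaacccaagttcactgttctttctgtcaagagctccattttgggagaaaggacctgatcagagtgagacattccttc
Cd79a, chr7:24897247-24897546: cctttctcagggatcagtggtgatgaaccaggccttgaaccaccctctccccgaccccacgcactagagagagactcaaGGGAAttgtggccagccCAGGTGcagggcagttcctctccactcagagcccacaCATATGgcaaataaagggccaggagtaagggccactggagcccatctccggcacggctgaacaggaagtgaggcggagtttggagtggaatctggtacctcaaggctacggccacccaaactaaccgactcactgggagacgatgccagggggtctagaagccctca
The Dntt window held 3 E-boxes and 1 GGGAA core, and the Cd79a window held 2 E-boxes and 1 GGGAA core. E-boxes occurred in 72.3% and GGGAA in 62.7% of all 32851 windows of this length, so neither sets these windows apart. Exact matches to the cores CCCNNGGG of Ebf1 sites and TGTGGT of Runx sites, present in 13.7% and 16.8% of windows, were found in neither. Sites that depart from these letters were not searched for, so absence of Ebf1 or Runx sites is not shown. RefSeq windows were at hand for 6 of the 7 genes.

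The values were log2 signals of 1 array per sample, with array medians between 5.51 and 5.68, and the precision of each difference is limited by the number of arrays, 3 in each group. LT-HSC markers were read for 8 of 10 genes, with Kit, the stem cell factor receptor, between 9.43 and 10.18 on all arrays. Other markers moved more. From Jak2VF, Jak2VF_Ezh2KO differed by 0.90 for Procr, 0.31 for Mecom and -0.38 for Meis1, with 5 of the 8 positive. From WT it differed by 0.26, -0.40 and -0.43, with 3 positive. Jak2VF differed from WT by -0.64, -0.71 and -0.05, with 2 positive. None of these differences passed (limma, adjusted p from 0.0941 to 0.980). Ezh2 itself read 8.47, 8.08 and 8.42 in Jak2VF_Ezh2KO, against 8.87, 9.09 and 8.78 in Jak2VF and 8.48, 8.81 and 8.69 in WT. All 3 double mutant arrays lay below both other groups, but the differences of -0.59 from Jak2VF and -0.34 from WT did not pass the test (limma, adjusted p = 0.411 and 0.596). The probes may lie outside the deleted exons, about which the sources used here say nothing, so this reading does not check the labels. Jak2VF_Ezh2KO replicates 1 and 2 carried Y-linked signal, with means of 6.66 and 6.81 over Y-linked genes, whereas replicate 3 and the other 6 arrays read 3.64 to 4.08. The sexes were therefore mixed in the double mutant group and not in the other groups. In a bulk sample, fewer cells of a type and less RNA per cell cannot be told apart.

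Dntt, which encodes the polymerase that adds untemplated bases at V(D)J joints, was the member with the widest separation of groups. It read 8.49, 8.76 and 9.09 in the 3 Jak2VF_Ezh2KO arrays, against 6.76, 7.46 and 7.36 in Jak2VF and 6.79, 7.51 and 5.80 in WT. Every double mutant array lay above every array of the other genotypes, and the lowest of them was 1.03 above the highest Jak2VF array and 0.98 above the highest WT array. The group means were 8.78 ± 0.30 in Jak2VF_Ezh2KO, 7.19 ± 0.38 in Jak2VF and 6.70 ± 0.86 in WT (log2, SD, n = 3 each). The difference of Jak2VF_Ezh2KO from Jak2VF was 1.59 with a standard error of 0.38 and a 95% interval of 0.74 to 2.43, or 3.0-fold, and from WT it was 2.08 with an interval of 1.24 to 2.92, or 4.22-fold. Neither difference passed the threshold of 0.05 on p-values adjusted by Benjamini-Hochberg for all 22180 genes (limma, adjusted p = 0.342 against Jak2VF and 0.182 against WT). Among all genes, the Dntt difference had rank 23 from the top against Jak2VF and rank 10 against WT. Leaving out any 1 array kept the difference between 1.37 and 1.73 against Jak2VF and between 1.63 and 2.48 against WT. Double mutant replicate 3, without Y-linked signal, gave the highest Dntt value. Replicates 1 and 2, with it, averaged 8.63, and the other 6 arrays averaged 6.95. With the Y-linked signal as a covariate the Dntt differences were 1.89 from Jak2VF and 2.39 from WT. The double mutant estimate then rests on replicate 3, and the part of sex in the Dntt values was not tested.

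**Figure D1:**
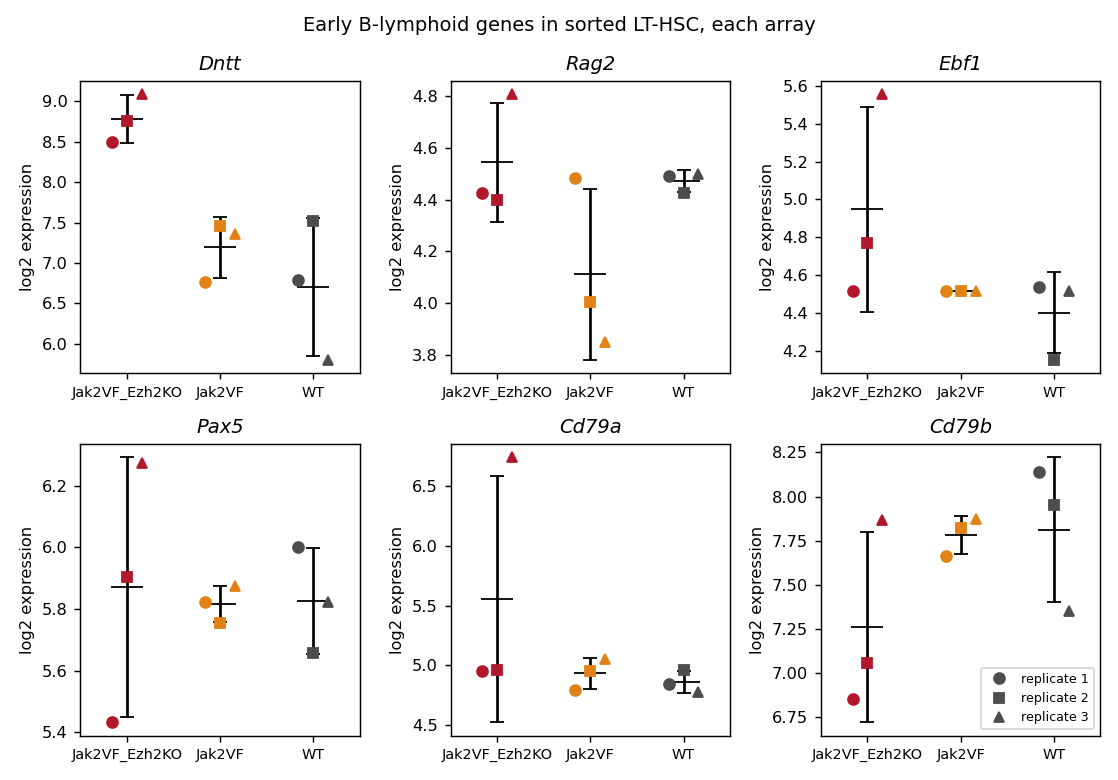
Log2 expression of the 6 readable genes in each array, with 1 panel per gene and its own vertical axis; symbols mark replicates 1 to 3, horizontal bars the group means and whiskers the SD. Dntt is high in all 3 Jak2VF_Ezh2KO arrays (8.49 to 9.09), whereas the highest Cd79a and Ebf1 values (6.74 and 5.55) both belong to replicate 3 of that group.

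Rag2, the partner of Rag1 in the enzyme that cuts antigen receptor gene segments, did not share the pattern of Dntt. It read 4.42, 4.40 and 4.81 in Jak2VF_Ezh2KO, against 4.48, 4.00 and 3.85 in Jak2VF and 4.49, 4.42 and 4.50 in WT. The groups overlapped in every comparison, and the double mutant arrays lay around the WT values. The difference of Jak2VF_Ezh2KO from Jak2VF was 0.43 (95% interval 0.02 to 0.84, limma, adjusted p = 0.703), and from WT it was 0.07 (interval -0.34 to 0.48, adjusted p = 0.934). Rag2, Ebf1 and Cd79a have means below the median of all genes on these arrays.

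Ebf1, a pioneer factor of B cell specification, read 4.52, 4.77 and 5.55 in Jak2VF_Ezh2KO, against 4.52 in each of the 3 Jak2VF arrays and 4.54, 4.15 and 4.52 in WT. The high value belonged to double mutant replicate 3, which stood 0.78 above every other array. Only 5 distinct Ebf1 values occurred over the 9 arrays, since 5 arrays carried exactly the same deposited number, and 46.5% of all genes had at least 1 such repeat among their arrays. The SD of 0 in Jak2VF is therefore no measure of biological spread. The difference from WT was 0.55 (95% interval 0.01 to 1.08, limma, adjusted p = 0.576) and from Jak2VF 0.43 (adjusted p = 0.759). Without replicate 3 these differences were 0.24 and 0.13.

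Pax5, which locks cells into the B lineage, read 5.43, 5.90 and 6.28 in Jak2VF_Ezh2KO, against 5.82, 5.76 and 5.87 in Jak2VF and 6.00, 5.66 and 5.82 in WT. Double mutant replicate 3 was again the highest array and replicate 1 the lowest, so the group straddled both others. The mean difference was 0.05 from Jak2VF and 0.04 from WT, with 95% intervals of -0.39 to 0.50 and -0.40 to 0.49 (limma, adjusted p = 0.974 and 0.963). Without replicate 3 the sign turned, to -0.15 and -0.16.

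Cd79a, the Ig-alpha chain, had the array farthest from all others among the members. It read 4.96, 4.96 and 6.74 in Jak2VF_Ezh2KO, against 4.80, 4.95 and 5.06 in Jak2VF and 4.85, 4.96 and 4.78 in WT. Replicate 3 stood 1.69 above every other array, while replicates 1 and 2 lay within the range of the other genotypes. The differences of 0.62 from Jak2VF and 0.69 from WT had wide 95% intervals of -0.27 to 1.51 and -0.20 to 1.58 (limma, adjusted p = 0.794 and 0.662). Without replicate 3 they were 0.02 and 0.10. With the Y-linked signal as a covariate they were 1.81 and 1.88 and passed (limma, adjusted p = 0.0259 and 0.0151), since the double mutant estimate then rests on replicate 3.

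Cd79b, the Ig-beta chain that pairs with Cd79a, lay low in the remaining double mutant arrays. It read 6.85, 7.06 and 7.87 in Jak2VF_Ezh2KO, against 7.66, 7.82 and 7.87 in Jak2VF and 8.14, 7.95 and 7.35 in WT. Replicates 1 and 2 were the 2 lowest of all 9 arrays, and replicate 3 lay within the range of both other groups. The differences were -0.53 from Jak2VF and -0.56 from WT, with 95% intervals of -1.14 to 0.09 and -1.17 to 0.06 (limma, adjusted p = 0.744 and 0.610). Without replicate 3 they were -0.83 and -0.86. With the Y-linked signal as a covariate the direction turned, to 0.084 and 0.055. The 2 low arrays were also those with Y-linked signal, so sex and any other difference between replicate 3 and the rest of its group cannot be told apart.

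Against Jak2VF, 0 of the 6 genes passed, where 0.0451% of all genes passed (10 of 22180), and against WT 0 of the 6 passed, where 0.0225% did (5 genes). At an unadjusted p under 0.05 in limma, Dntt and Rag2 lay higher than in Jak2VF, where 2.91% of all genes did, and Dntt and Ebf1 lay higher than in WT, where 4.54% did. Groups did not overlap for Dntt alone, with 4.18% of all genes lying wholly above and 6.94% wholly below Jak2VF, and 6.28% wholly above and 6.62% wholly below WT. Differences were positive for 5 of 6 genes in both comparisons, against 41.8% and 46.5% of all genes. The median of the 6 was 0.43 against Jak2VF and 0.31 against WT, with medians of -0.04 and -0.02 over all genes. These values depended on double mutant replicate 3: without it the medians of the 6 were 0.08 and 0.02, and 4 and 3 of the 6 differences were positive. Over all genes without that array, the medians were -0.04 and -0.02, and 42.0% and 46.4% of differences were positive. Both comparisons use the same double mutant arrays.

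**Figure D2:**
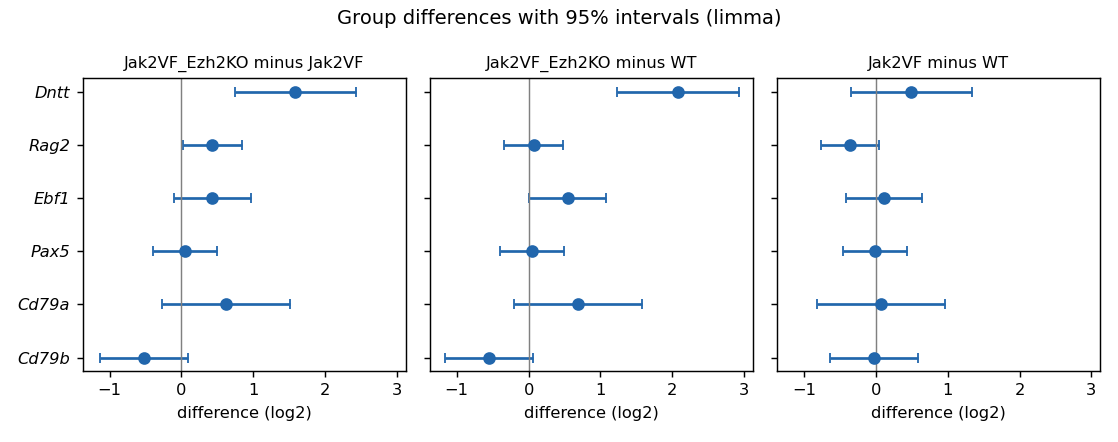
Differences between groups (log2) for the 6 genes, 1 panel per comparison; points are the limma estimates and whiskers their 95% intervals. The Dntt intervals lie above 0 in both comparisons of Jak2VF_Ezh2KO (0.74 to 2.43 and 1.24 to 2.92), and all 6 intervals include 0 for Jak2VF minus WT.

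**Figure D3:**
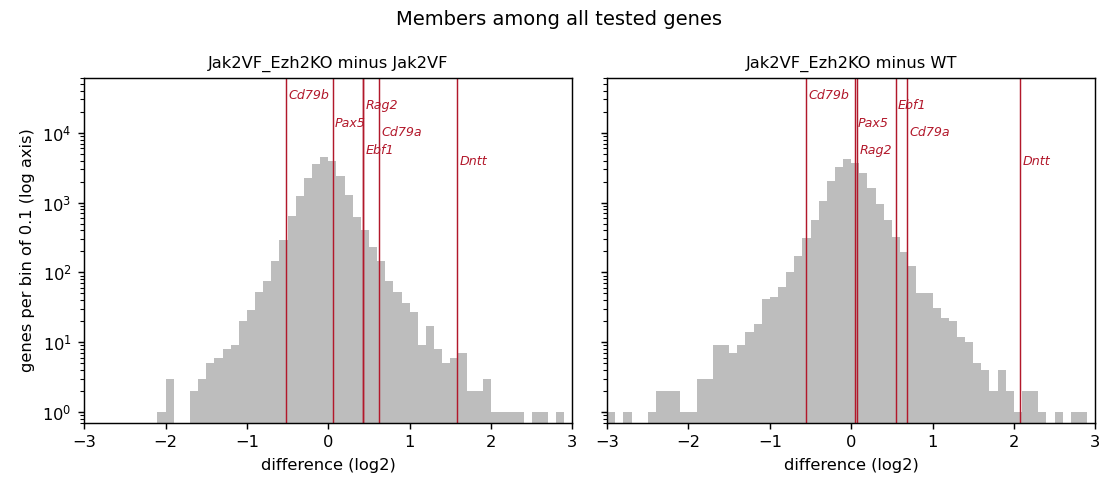
Histograms of the differences of all 22180 genes (log2, bins of 0.1, log vertical axis) for Jak2VF_Ezh2KO minus Jak2VF and minus WT, with the 6 genes as red lines; 2 genes in each panel lie beyond the axis limit of 3. Dntt stands in the upper tail of both histograms at 1.59 and 2.08, and the other 5 lie between -0.56 and 0.69.

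None of the 6 genes passed the test between Jak2VF and WT, which differ in the mutant Jak2 allele and may also differ in MxCre. Against WT, 0 of the 6 passed in Jak2VF, where 0% of all genes passed, and 0 of the 6 reached an unadjusted p under 0.05 in limma, where 4.66% of all genes did. Differences were positive for 3 of 6, against 55.8% of all genes, and all 6 had overlapping groups, where 3.54% of all genes lay wholly above and 2.57% wholly below WT. Dntt differed by 0.49 (95% interval -0.35 to 1.34), and this value rested on WT replicate 3, since it was 0.04 without that array and 0.90 without WT replicate 2. Rag2 differed by -0.36 (interval -0.77 to 0.05) and the remaining 4 by -0.03 to 0.11. The intervals do not exclude a change of Dntt of up to 1.34, so similarity of the 2 groups is not shown. Ordered by group mean, Dntt was highest in Jak2VF_Ezh2KO, then Jak2VF, then WT, and the neighbours Jak2VF and WT did not differ beyond their spread.

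Genes that act around the members in lymphoid priming were read as lists, over all their measured members. Of 8 measured lymphoid priming receptors and related genes, 0 passed in any of the 3 comparisons (limma; 2, 2 and 1 had an unadjusted p under 0.05, all higher), and the median difference of Jak2VF_Ezh2KO was 0.14 from Jak2VF and 0.28 from WT, with 5 positive and 3 negative differences from Jak2VF and 6 and 2 from WT. Over all genes, an unadjusted p under 0.05 was reached by 2.91% higher and 3.99% lower against Jak2VF, by 4.54% higher and 4.06% lower against WT, and by 2.85% higher and 1.81% lower between Jak2VF and WT. The counts of the later lists stand beside the same shares. Il7r, the receptor for the interleukin that sustains early lymphoid cells, read 6.05, 7.25 and 7.33 in Jak2VF_Ezh2KO, against 5.57, 4.80 and 4.40 in Jak2VF and 5.19, 5.57 and 5.04 in WT. Like Dntt, it lay above both other groups in all 3 double mutant arrays, with differences of 1.95 and 1.61 that did not pass (limma, adjusted p = 0.221 and 0.319). In this list 1 gene lay wholly above Jak2VF and 2 wholly above WT, where 4.18% and 6.28% of all genes did. Flt3, the gene of the CD135 sort marker and a receptor of lymphoid-primed progenitors, read 7.73, 8.03 and 7.64 in Jak2VF_Ezh2KO, against 7.10, 7.48 and 8.01 in Jak2VF and 7.34, 7.64 and 6.91 in WT, and differed by 0.50 from WT (adjusted p = 0.614). Ly6d, which marks B-biased lymphoid progenitors in mouse, read 6.59, 6.85 and 7.37 in Jak2VF_Ezh2KO, against 6.15, 6.26 and 6.59 in Jak2VF and 6.97, 6.40 and 6.36 in WT. Cd27, a costimulatory receptor of lymphoid-primed progenitors, lay the other way, with differences of -0.38 from Jak2VF and -0.15 from WT (limma, adjusted p = 0.731 and 0.836). Satb1, a chromatin organiser linked to lymphoid priming, differed by 0.59 from WT in Jak2VF_Ezh2KO and by 0.73 in Jak2VF (adjusted p = 0.556 and 0.924).

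The transcription factors upstream of Ebf1 gave mixed values. Of 13 measured regulators, 0 passed in any comparison (limma; unadjusted p under 0.05 in 1 higher and 1 lower against Jak2VF, and in 3 higher and 1 lower against WT). Between Jak2VF_Ezh2KO and Jak2VF, 6 differences were positive and 7 negative, with a median of -0.01. Against WT, 9 were positive and 4 negative, with a median of 0.06. In the double mutant Id2, Tcf3 and Runx1 lay wholly above WT, where 6.28% of all genes did. Id2 alone lay wholly above Jak2VF, where 4.18% did. Tcf3, whose E2A products activate Ebf1 and Rag genes, read 8.17, 8.31 and 8.32 in Jak2VF_Ezh2KO, against 7.47, 8.31 and 7.69 in Jak2VF and 7.29, 8.02 and 7.52 in WT. All 3 double mutant arrays lay above WT, by a mean of 0.65 (limma, adjusted p = 0.518). Id2, an inhibitor that binds E proteins and keeps them off DNA, read 7.86, 7.80 and 7.57 in Jak2VF_Ezh2KO, against 5.54, 6.15 and 6.62 in Jak2VF and 6.72, 6.23 and 6.75 in WT, with differences of 1.64 and 1.18 (adjusted p = 0.0934 and 0.270). Sox4 differed by -0.48 from Jak2VF and Runx1 by 0.49 from WT, and Ikzf1 and Foxo1, a regulator of lymphoid development and an activator of the Rag genes, differed by -0.10 and -0.05 from Jak2VF (limma, adjusted p from 0.531 to 0.973).

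None of the measured partners of the Rag recombinase lay wholly above both other groups, as Dntt did. Among 10 measured genes of the V(D)J joining machinery, 0 passed in any comparison (limma; unadjusted p under 0.05 in 1 lower against Jak2VF and 2 lower against WT), and the medians of the double mutant were -0.03 against Jak2VF and -0.09 against WT. Hmgb1, a DNA-bending cofactor of the recombinase, lay below both other groups in all 3 double mutant arrays, with differences of -0.32 and -0.34 (limma, adjusted p = 0.656 and 0.526). Polm, a polymerase related to terminal transferase, differed by -0.29 from Jak2VF and -0.42 from WT (adjusted p = 0.774 and 0.561).

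Of 16 measured pre-B and B cell genes beyond the members, 0 passed in any comparison and 0 had an unadjusted p under 0.05 (limma), and 13 had means below the median of all genes. Igll1, a surrogate light chain gene, read 4.46, 5.57 and 8.15 in Jak2VF_Ezh2KO, against 4.97, 3.90 and 4.71 in Jak2VF and 5.12, 4.62 and 4.71 in WT. Vpreb3, expressed in pre-B cells, read 5.27, 5.38 and 7.51 in Jak2VF_Ezh2KO, against 5.24, 5.27 and 4.99 in Jak2VF and 5.24, 5.14 and 5.08 in WT. In both genes the highest value belonged to replicate 3, and replicate 2 also lay above every array of the other genotypes. For Vpreb3 that margin was small, at 5.38 against at most 5.27. Vpreb1, the other surrogate light chain component, read 4.70, 4.59 and 4.91 in Jak2VF_Ezh2KO, against 4.66, 4.58 and 4.75 in Jak2VF and 4.66 in each WT array. The transcription factor gene Lef1 differed by 0.42 from Jak2VF, with 5.95, 5.73 and 6.39 in the double mutant arrays (limma, adjusted p = 0.727).

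Of 8 measured genes of B cell receptor signalling, 0 passed in any comparison (limma; unadjusted p under 0.05 in 2 lower against Jak2VF, and in 1 higher and 1 lower between Jak2VF and WT). Blnk, the adaptor that links the receptor to its downstream enzymes, read 5.26, 5.26 and 6.54 in Jak2VF_Ezh2KO, against 5.26, 5.02 and 5.18 in Jak2VF and 5.30, 5.14 and 5.26 in WT, once more with replicate 3 apart. The kinase genes Syk and Btk, which myeloid cells use as well, differed by -0.52 and -0.48 from Jak2VF (limma, adjusted p = 0.641 and 0.663), and Syk lay 0.59 higher in Jak2VF than in WT (adjusted p = 0.924).

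**Figure D4:**
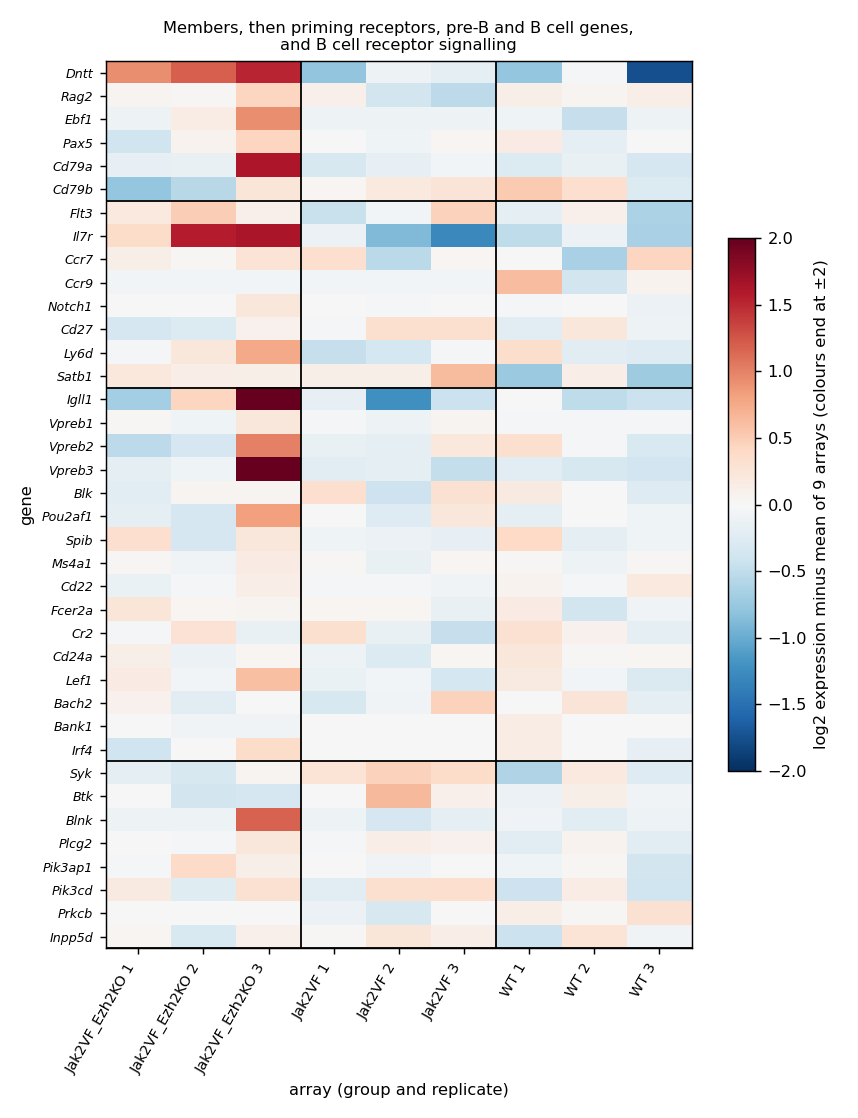
Log2 expression minus each gene's mean of the 9 arrays, with genes as rows (the 6 members, lymphoid priming receptors, pre-B and B cell genes, B cell receptor signalling) and arrays as columns. Dntt and Il7r lie above their means in all 3 Jak2VF_Ezh2KO columns, while the highest values of Cd79a (6.74), Igll1 (8.15), Vpreb3 (7.51) and Blnk (6.54) all belong to replicate 3.

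Double mutant replicate 3 was singled out after its values were seen. It was the highest array for 5 of the 6 members, against 9.32% of all genes with their highest value there, and stood more than 0.5 above every other array for 2 of them, Ebf1 and Cd79a, against 0.528% of all genes. Among the 16 further pre-B and B cell genes, 4 stood that far above, namely Igll1, Vpreb2, Vpreb3 and Pou2af1, the last a coactivator of B cells. Vpreb2 and Pou2af1 read 7.05 and 6.35 there, and at most 6.35 and 5.75 elsewhere. Averaged over the 5 members other than Dntt, replicate 3 lay 0.73 above the mean of the 9 arrays, and replicates 1 and 2 of the same genotype lay at -0.28 and -0.10, below or among the -0.12 to 0.09 of the other 6 arrays. Dntt, Il7r and Id2, picked here from different lists, lay above both other groups in all 3 double mutant arrays, replicate 3 included. Of all genes, 4.18% lay wholly above Jak2VF and 6.28% wholly above WT, and the share above both was not counted.

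Markers of other cells were read beside these values. Ms4a1, the mature B cell gene of CD20, read 4.58 in replicate 3, against 4.27 to 4.46 in all other arrays, and Fcer2a and Cr2 read 4.68 and 4.65 there, within the range of the other arrays. Jchain, the joining chain gene of plasma cells, read 6.46, 6.22 and 7.93 in Jak2VF_Ezh2KO, against 4.94, 6.35 and 3.84 in Jak2VF and 3.90, 6.35 and 6.41 in WT. The heavy chain gene Ighm varied widely in every group, from 8.70 to 10.09 in Jak2VF_Ezh2KO, 7.50 to 10.87 in Jak2VF and 7.43 to 10.00 in WT. The mean of the 7 measured plasma and mature B cell markers, relative to the 9 arrays, was 0.05 to 0.49 in Jak2VF_Ezh2KO, -0.60 to 0.30 in Jak2VF and -0.44 to 0.17 in WT. The 0.49 was that of double mutant replicate 3, the highest of the 9 arrays for this list too. T cell markers, which could accompany Dntt and Rag genes in thymic-type cells, were read for 6 of 8 genes. Their mean by array was -0.05 to 0.10 in Jak2VF_Ezh2KO, -0.26 to 0.20 in Jak2VF and -0.06 to 0.04 in WT. Cd3e, a defining chain of the T cell receptor complex, read 5.16, 4.83 and 5.03 in Jak2VF_Ezh2KO, against 4.87, 4.72 and 5.14 in Jak2VF and 4.90, 4.91 and 4.92 in WT. The other chains of that complex had single high arrays in the double mutant, Cd3d at 6.13 in replicate 2 and Cd3g at 5.63 in replicate 3, against at most 5.51 and 5.07 in the other genotypes. Cd4, the coreceptor of helper T cells, lay below both other groups in all 3 double mutant arrays, with differences of -0.39 from Jak2VF and -0.48 from WT (limma, adjusted p = 0.657 and 0.466). Thy1 differed in Jak2VF_Ezh2KO by -0.50 from Jak2VF and 0.22 from WT, and by 0.72 between Jak2VF and WT (limma, adjusted p = 0.587, 0.741 and 0.924). Plasmacytoid dendritic cells also express lymphoid genes such as Dntt. Their 8 markers had means of 0.04 to 0.22 in Jak2VF_Ezh2KO, -0.07 to 0.05 in Jak2VF and -0.27 to 0.01 in WT, and the 0.22 was again that of replicate 3. The defining gene Siglech read 6.21, 6.41 and 5.92 in the double mutant, against 6.57, 5.69 and 6.21 in Jak2VF and 6.40, 6.21 and 6.19 in WT. Of these 8, differences of the double mutant were positive for 5 and negative for 3 from Jak2VF, and 4 and 4 from WT. An unadjusted p under 0.05 in limma was reached by 1 and 2 of them, all higher, where 2.91% and 4.54% of all genes did. The interferon-induced Bst2 and the transcription factor gene Irf8 both lay 0.98 higher than in WT (limma, adjusted p = 0.336 and 0.253), and Irf8 lay 0.81 higher in Jak2VF than in WT. Pacsin1, Cox6a2 and Ccr9 lay the other way, by -0.24, -0.16 and -0.17 from WT. Klk1, a dim marker of the same list, read 3.23, 3.51 and 4.35 in Jak2VF_Ezh2KO. It read 2.90, 3.17 and 3.13 in Jak2VF and 3.17, 3.41 and 2.91 in WT. Its differences of 0.64 and 0.54 did not pass (limma, adjusted p = 0.689 and 0.610). The 6 myeloid markers had means of -0.30 to 0.00 in Jak2VF_Ezh2KO, 0.11 to 0.29 in Jak2VF and -0.38 to 0.08 in WT, and the 8 LT-HSC markers means of -0.16 to 0.15 in Jak2VF_Ezh2KO, -0.15 to -0.08 in Jak2VF and 0.11 to 0.13 in WT. Of 5 erythroid genes 2 were measured, Klf1, an erythroid transcription factor gene, and Car1, a carbonic anhydrase gene of erythroid cells. Their mean was 0.12 to 0.59 in Jak2VF_Ezh2KO, -0.87 to 0.59 in Jak2VF and -0.44 to 0.38 in WT. Klf1 read 8.07, 7.90 and 7.57 in Jak2VF_Ezh2KO, against 6.41, 7.82 and 6.61 in Jak2VF and 6.71, 7.60 and 6.78 in WT, with differences of 0.90 and 0.81 (limma, adjusted p = 0.683 and 0.580). Car1 differed by 0.47 and 0.22. The part of other cells in the member values was not tested.

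**Figure D5:**
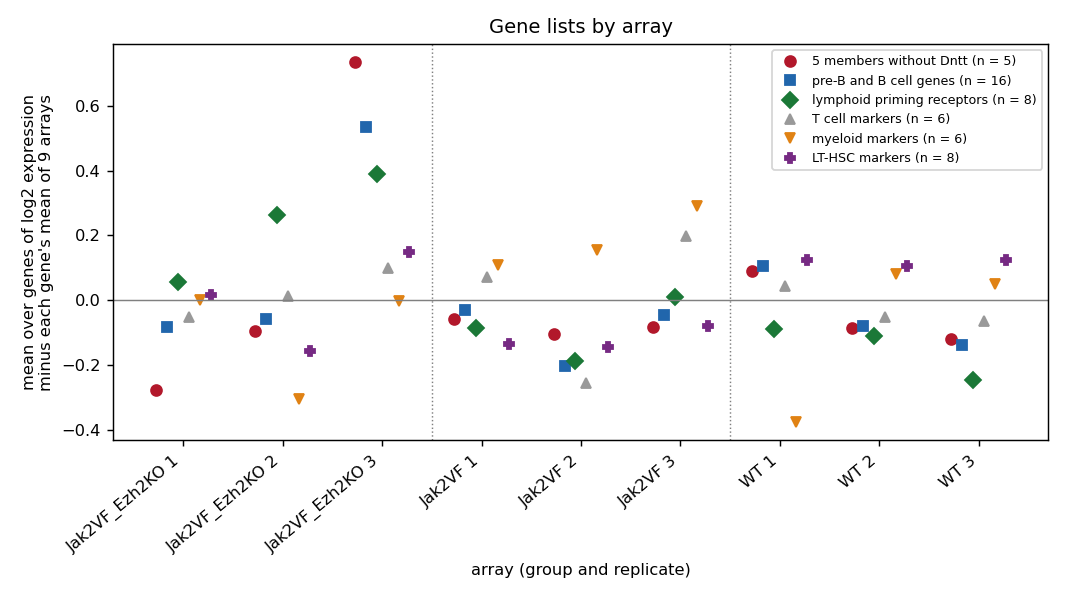
Mean log2 expression of each gene list by array, relative to each gene's mean of the 9 arrays, with 1 symbol per list and the number of genes in the legend. In Jak2VF_Ezh2KO replicate 3 the 5 members without Dntt reach 0.73, the pre-B and B cell genes 0.53 and the lymphoid priming receptors 0.39. T cell markers read 0.10 there, myeloid markers -0.002 and LT-HSC markers 0.15, the last also their highest value over the 9 arrays. Lists not drawn include plasma and mature B cell markers (0.49 there) and plasmacytoid dendritic cell markers (0.22), both also highest in that array.

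Over the 9 arrays Cd79a and Ebf1 had a Pearson r of 0.90, which was -0.06 over the 8 arrays without double mutant replicate 3, and Dntt and Cd79b had -0.29. Among genes brighter than the median, those whose values followed the mean of the 6 members most closely were Notch1, Sigirr, Pde2a, Marcks, Pdlim2, Rgs1, Uchl1 and Fgd2, with r of 0.91 to 0.97 over 9 arrays and 0.74 to 0.89 over 8. All 8 had their highest value in double mutant replicate 3, the array that also dominates the mean of the members, and these coefficients are a description of arrays that share that sample.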

How the data were processed

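The deposited table holds log2 expression values of 41345 probe sets on 9 arrays, already processed by the authors; the scale was read from the values. Per the labels' protocols, 10 ng of RNA went through NuGEN Ovation Pico amplification and biotin labelling. The submitters' processing notes name Partek 6.6. The sources used here do not state the background correction or normalization, and nothing was renormalized.

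Names of probe sets came from the platform annotation (23521 with 1 symbol, 1814 with several, 16010 unnamed here), with symbols updated by gene ID for 23328. For each gene the probe set of 1 symbol with the highest mean was kept, giving 22180 genes. limma 3.58.1 in R 4.3.3 (lmFit, eBayes without trend) was fitted to all 9 arrays with 3 contrasts, and Benjamini-Hochberg adjusted p-values cover all genes. The fit was also run on simulated data with known shifts, and that outcome is not used as support here. Fold changes are powers of 2 of log2 differences. The members, lists and rules were chosen with earlier results of these data known. The rule names the members, a set of key lymphoid genes, and up to 3 genes of each list per contrast by p. Vpreb2, Pou2af1 and single markers were named after their values were seen. Alternatives were changes of variance model, scaling, gene filter, samples, array weights, probe sets, replicate block, a Y-linked covariate and threshold, and leaving out each array.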

Additional observations from a re-analysis of the deposited data

How the results depend on the processing

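Of 333 differences of members recomputed under alternatives, 316 kept their sign and 17 turned, none of them for Dntt or Cd79a. Dntt kept its sign in all 19 alternatives of each comparison. Against Jak2VF its difference lay between 1.37 and 1.89 (adjusted p from 0.160 in limma to 0.772 by ordinary least squares without moderation). Against WT it lay between 1.63 and 2.48 (adjusted p from 0.0588 in limma, without WT replicate 2, to 0.699 by ordinary least squares). Between Jak2VF_Ezh2KO and Jak2VF, Pax5 turned to -0.030 with array weights and ranged from -0.15 to 0.27 on leaving out single arrays, and Cd79b was 0.084 with the Y-linked covariate. Against WT, Pax5 was -0.028 with array weights and -0.16 to 0.26 on leaving out single arrays, Rag2 was -0.060 to 0.14 on leaving out single arrays, and Cd79b was 0.055 with the Y-linked covariate. Between Jak2VF and WT, Pax5 was 2.83e-05 with median centring and 0.00115 with array weights, Cd79b was 0.068 with array weights, and leaving out single arrays gave -0.094 to 0.077 for Pax5, -0.26 to 0.13 for Cd79b and -0.0095 to 0.18 for Ebf1.

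Members called stayed at 0 except with the Y-linked covariate, where 1 member, Cd79a, was called against Jak2VF (1.81, limma, adjusted p = 0.0259) and 1 against WT, Cd79a again (1.88, adjusted p = 0.0151). By construction the double mutant estimate then rests on replicate 3, the only array of its group without Y-linked signal. The 10 genes called against Jak2VF became 23 at an adjusted p under 0.1, 19 without genes below the median, 0 by ordinary least squares, with the 2 groups alone, with every probe set tested or with the replicate block, and 0 to 17 on leaving out single arrays, 17 without double mutant replicate 3. The 5 genes called against WT became 13 at an adjusted p under 0.1, 10 with an intensity trend and robust variance, 8 after quantile normalization, 3 after median centring, 14 with array weights, 0 by ordinary least squares, with the 2 groups alone, with every probe set tested or with the replicate block, and 0 to 14 on leaving out single arrays, 14 without double mutant replicate 3. Between Jak2VF and WT the count was 0 in all alternatives. The causes were not tested.

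With the replicate number as a block, Dntt differed by 1.59 (limma, adjusted p = 0.354) and 2.08 (adjusted p = 0.173). Same-numbered arrays deviated together with correlations of -0.23 to 0.48, and 3 of 9 arrays correlated best with their own number, so the numbers were not taken as pairs. With 3 arrays a group, and many values repeated between arrays, differences of dim genes are poorly resolved.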
